A study of Mus musculus with 6 samples.

Results

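The 6 genes described here, out of 19618 in the deposited count table, are Hsd17b13 and relatives that carry the same family name: Hsd17b11, Hsd17b2, Hsd17b4, Hsd17b10 and Hsd17b12. They were chosen by gene symbol. Hsd17b13 was selected on its knockout and control values in these same libraries, as a gene nearly absent from the control, so its difference between the groups is given as a description with no test. Its relatives were listed by name beside it, with earlier results of these data known, so their results in the fit across all genes are no independent support. All 6 were in the table and passed the filter on low counts that left 15422 genes for testing; Hsd17b13 passed it through its knockout counts.

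The hydroxysteroid dehydrogenase family is named for enzymes that interconvert active and inactive forms of sex steroids, yet several of its members act mainly on other substrates. Hsd17b13 and Hsd17b11 encode enzymes that sit on the surface of lipid droplets, the stores of neutral lipid in a cell. Hsd17b13 is known above all from liver, and retinol is among its reported substrates. Hsd17b2 oxidises oestradiol and testosterone to weaker steroids, Hsd17b4 works in the peroxisome, Hsd17b10 in the mitochondrion, and Hsd17b12 in the endoplasmic reticulum, where very long fatty acids are built.

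The libraries came from keratinocytes of tail skin, taken from mice aged 4 months. In the knockout group of 3 mice, the K14cre transgene, in which a keratin 14 promoter drives Cre recombinase in basal epidermal cells, was combined with a Gpr161 allele flanked by loxP sites on both chromosomes. Among the 3 controls, none with K14cre per the labels, 1 mouse was homozygous and 2 were heterozygous for that floxed allele. Because no control carried K14cre, an effect of the transgene and an effect of the Gpr161 deletion cannot be told apart. Gpr161 encodes a ciliary receptor that restrains Hedgehog signalling. Libraries are named by the tag in their column: DE679, DE685 and DE688 are knockouts, and DE680, DE684 and DE689 are controls. The labels do not tie a tag to a mouse, so the homozygous control is not identified among them. P-values from edgeR set the difference between the groups against the spread among samples within them, 3 and 3 here. That spread is moderated across the tested genes.

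Total estimated counts ranged from 17157864 to 25344399 per library. Gpr161 itself did not pass the test, with 28.8 ± 4.23 against 31.4 ± 1.10 CPM (SD, n = 3; adjusted p 0.553 in the edgeR test described below), so the whole-gene count does not check the labels; reads over the deleted exons were not analysed here. CPM is the count relative to library size, with the sizes adjusted by TMM factors, so that libraries of different depth can be compared. DE685 and DE684 had Y-linked counts of 3311 and 5291, and the other libraries had at most 3. The keratinocyte markers Krt5, Krt14, Krt1 and Krt10 had means from 2540 to 14900 CPM in the knockout and from 3020 to 18900 in the control.

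Hsd17b13 and Hsd17b11 lie next to each other on chromosome 5, both on the minus strand. In GRCm38, Hsd17b13 spans chr5:103955440-103977410 and Hsd17b11 spans chr5:103989762-104021919, with 12.4 kb between the end of Hsd17b11 and the start of Hsd17b13 in the direction of transcription. Their coding sequences are 912 and 894 bases long, and 598 aligned bases were identical, which is 65.6% of the longer sequence. By this share, none of the other dehydrogenase coding sequences aligned came as near to Hsd17b13, the next being Sdr16c5 with 55.6%. The first 90 coding bases, of which 55 are identical (61.1%), are shown because they let a reader see how far the transcripts of the pair can be told apart. Capitals mark the bases that differ; the sequences are from the GENCODE M21 transcripts.
Hsd17b13: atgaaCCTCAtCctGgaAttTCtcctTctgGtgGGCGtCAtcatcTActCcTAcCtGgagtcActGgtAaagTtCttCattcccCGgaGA
Hsd17b11: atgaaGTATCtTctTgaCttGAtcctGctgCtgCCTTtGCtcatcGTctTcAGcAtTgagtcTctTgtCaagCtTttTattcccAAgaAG

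The longest run of bases shared exactly between any annotated transcript of Hsd17b13 and any of Hsd17b11 was 20 bases, and 0 words of 25 bases were shared. Exons of neither gene overlapped an exon of another gene in GENCODE M21. An exact read of 25 bases from the annotated transcripts could thus come from only 1 gene of the pair.

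The promoter windows, which run from 250 bases before the RefSeq transcript start to 50 after it (GRCm38.p6, minus strand), are shown for this pair because both genes stood higher in the knockout. Capitals mark exact matches to 4 motifs, searched on both strands. For Gli factors, the effectors of Hedgehog signalling, the letters were GACCACCCA. For nuclear receptors, the core of many of their sites was searched as AGGTCA. The TATA box was searched as TATAAA, which 13.6% of all promoter windows held. For the GC box, bound by Sp factors, the letters were GGGCGG. RefSeq windows matched 4 of the 6 members: Hsd17b13, Hsd17b11, Hsd17b10 and Hsd17b12. The windows of the neighbouring pair are as follows, at chr5:103977339-103977638 and chr5:104021747-104022046.
Hsd17b13: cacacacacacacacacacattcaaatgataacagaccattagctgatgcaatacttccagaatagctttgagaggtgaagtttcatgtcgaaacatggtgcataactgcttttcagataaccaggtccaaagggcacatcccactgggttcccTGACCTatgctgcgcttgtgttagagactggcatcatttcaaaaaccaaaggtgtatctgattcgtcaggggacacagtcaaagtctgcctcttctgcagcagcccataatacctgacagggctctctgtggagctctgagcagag
Hsd17b11: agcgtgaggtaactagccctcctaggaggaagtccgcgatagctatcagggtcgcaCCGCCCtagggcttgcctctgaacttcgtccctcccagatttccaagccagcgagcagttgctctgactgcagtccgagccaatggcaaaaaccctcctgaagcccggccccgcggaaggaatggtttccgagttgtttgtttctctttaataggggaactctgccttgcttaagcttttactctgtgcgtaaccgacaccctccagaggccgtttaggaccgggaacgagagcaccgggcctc

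The Hsd17b13 window held 1 match, TGACCT, the reverse complement of AGGTCA, which began 96 bases before the start; 16.3% of 32851 promoter windows held AGGTCA in either direction. The Hsd17b11 window held 1 match, CCGCCC, which began 194 bases before the start; 35.7% of windows held the GC box. Windows of Hsd17b10 and Hsd17b12 each held 1 GC box as well, so no match overlapped another. GACCACCCA was in none of the 4 windows and in 0.253% of all windows. The Hsd17b13 window had 3 CG pairs and a GC content of 47.0%, against 18 CG pairs and 57.0% for Hsd17b11. These matches are descriptions of letters, not of bound sites.

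Hsd17b13 was counted almost only in the knockout. The knockout libraries held 34 (DE679), 42 (DE685) and 57 (DE688) counts, and the control libraries 2 (DE680), 3 (DE684) and 1 (DE689). All 3 knockout libraries were high, all 3 controls were near 0, and the groups did not overlap. In CPM these counts were 1.44, 2.43 and 2.22 in the knockout, with a mean of 2.03 ± 0.519, against 0.0887, 0.132 and 0.0397 in the control, with a mean of 0.0867 ± 0.046 (SD, n = 3 each). Every control value was at or below the level of 3 counts, which is 0.119 to 0.133 CPM in those libraries. Summed over libraries and scaled for depth, the 133 knockout counts were 23.5 times the 6 control counts, with a 95% interval of 10.5 to 65.1 (exact Clopper-Pearson, counting error only). The upper limit is loose because it rests on 6 counts.

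**Figure D1:**
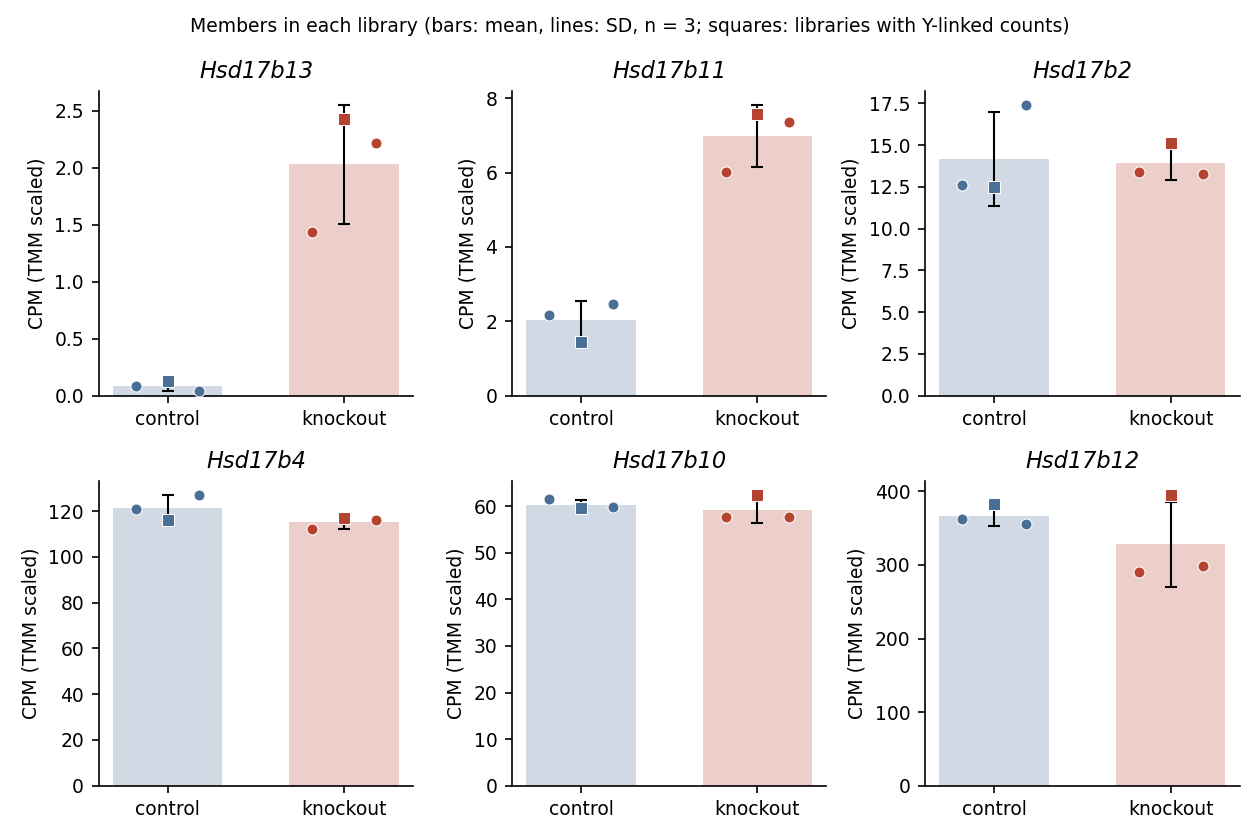
CPM (TMM scaled, linear axis from 0) of the 6 members in each library, with bars for group means and lines for the SD (n = 3); squares are the libraries with Y-linked counts, DE684 and DE685. Hsd17b13 and Hsd17b11 show knockout points above every control point, and the points of the other 4 genes overlap.

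Hsd17b11, the relative used as reference, was higher in the knockout as well. It had 6.02 (DE679), 7.57 (DE685) and 7.35 (DE688) CPM in the knockout and 2.17 (DE680), 1.45 (DE684) and 2.46 (DE689) in the control. The lowest knockout library was above the highest control library. Means were 6.98 ± 0.837 and 2.03 ± 0.522 CPM (SD, n = 3 each), a fold of 3.43 or a log2 change of 1.78 (SE 0.24; adjusted p 0.0157 by edgeR's quasi-likelihood F test, adjusted over 15422 genes after Benjamini and Hochberg). The rounded estimated counts behind it were 131 to 189 in the knockout and 33 to 62 in the control. In the fits that left out 1 library, the change ran from 1.58 to 1.94, and the adjusted p missed 0.05 without DE680 (0.0638), without DE685 (0.0571) and without DE688 (0.0646).

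Over the whole table, 247 of 15422 genes (1.60%) had an adjusted p under 0.05, 192 (1.24%) higher and 55 (0.357%) lower in the knockout. Of the 5 relatives, 1 was higher by this rule and 0 were lower. With libraries of adjacent tag numbers taken as pairs (DE679 with DE680, DE684 with DE685, DE688 with DE689), edgeR called 704 genes (4.56%), 465 higher (3.02%) and 239 lower (1.55%), and among the relatives again Hsd17b11 was higher (1.79, SE 0.23, adjusted p 0.00874) and 0 were lower. This blocked fit was added after the data were seen, and no label says that adjacent tags share a litter or day. Every knockout library was above every control library for 12.8% of the tested genes, and below for 12.8%. Since the contrast chose Hsd17b13, nothing is read from the members' count against these shares.

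Both genes of the pair were higher in the knockout, but not in the same proportion. For every 100 Hsd17b11 counts there were 23.9 (DE679), 32.1 (DE685) and 30.2 (DE688) Hsd17b13 counts in the knockout and 4.08 (DE680), 9.09 (DE684) and 1.61 (DE689) in the control. The control ratios rest on 2 (DE680), 3 (DE684) and 1 (DE689) Hsd17b13 counts. Hsd17b13 was chosen as nearly absent from the control, so a lower ratio there follows from that choice and is only described. Among the knockouts, DE679 was the lowest for both genes and DE685 the highest. Among the controls, DE684 was the lowest for Hsd17b11 and, with 3 counts, the highest for Hsd17b13.

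**Figure D2:**
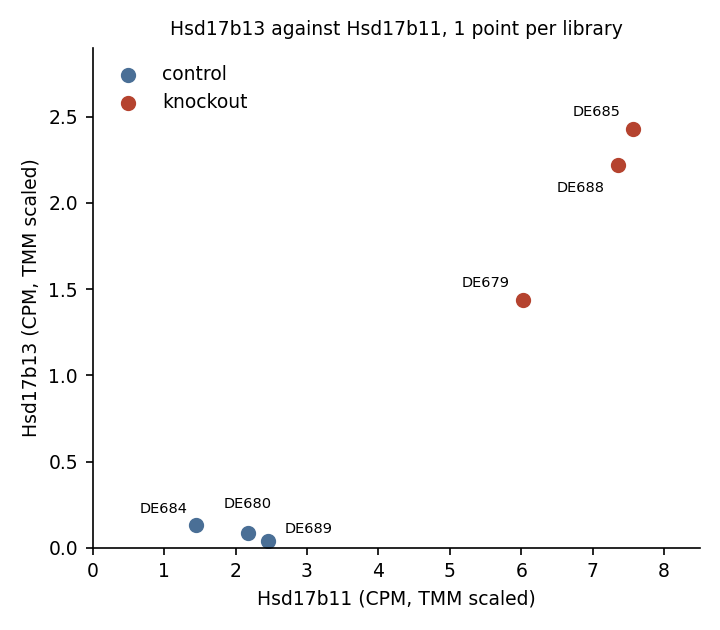
Hsd17b13 (vertical axis, CPM) against Hsd17b11 (horizontal axis, CPM), 1 point per library. The control points lie at or below 0.132 CPM of Hsd17b13 and 2.46 CPM of Hsd17b11, and the knockout points at or above 1.44 and 6.02 CPM.

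Other genes around the pair did not show a difference past the threshold. The 5 tested genes on each side of Hsd17b13 were taken in order along chromosome 5. Hsd17b11 was the only gene of these 10 past the threshold. Of all tested genes 1.60% passed, so few calls among 10 genes say little about this region. Klhl8, the next gene on the other side of Hsd17b13, with its start 66.2 kb from that of Hsd17b13, had 28.8, 26.6 and 37.5 CPM in the knockout and 27.4, 26.1 and 28.2 in the control. Those groups overlapped, and the log2 change was 0.19 (SE 0.13, edgeR adjusted p 0.463). Nudt9, whose start lies 68.9 kb from that of Hsd17b13 and beyond Hsd17b11, had means of 33.9 and 32.8 CPM and a log2 change of 0.05 (adjusted p 0.803 in edgeR, SE 0.09). Nudt9 shares exon bases with the opposite-strand Gm43545, and whether counting used the strand is not stated. Sparcl1, the matrix glycoprotein gene after it, had a log2 change of -0.35 (adjusted p 0.723 in edgeR, SE 0.47). Slc10a6, a transporter of sulfated steroids, stood lower in all 3 knockouts, at 6.28, 7.45 and 7.0 CPM against 8.92, 10.7 and 8.85 in the control, with a log2 change of -0.46 that did not pass (SE 0.14, edgeR adjusted p 0.149). Pkd2 stood higher in all 3 knockouts, at 35.5, 35.9 and 29.1 CPM against 28.4, 27.0 and 27.9 in the control. Its log2 change of 0.27 did not pass (adjusted p 0.199 in edgeR, SE 0.10). Such a separation of the groups is common: 12.8% of all tested genes stood higher in every knockout, and 12.8% lower. Aff1, Ptpn13, Arhgap24 and Thoc2l had changes from -0.09 to 0.12, with overlapping groups.

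**Figure D3:**
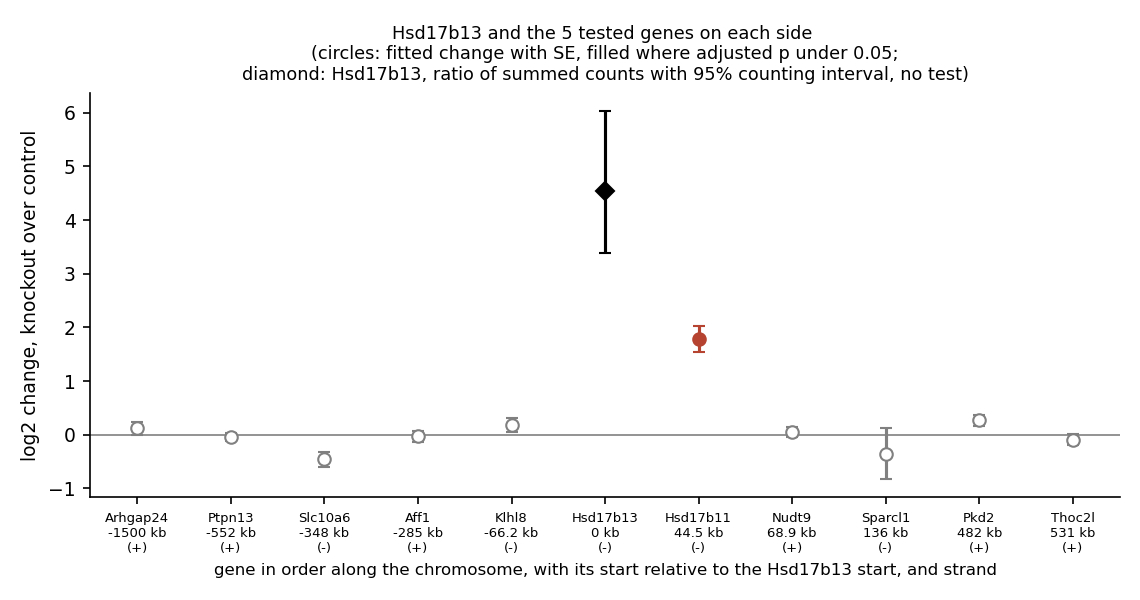
Log2 change, knockout over control, of Hsd17b13 and the 5 tested genes on each side, in order along the chromosome with the distance of each start from that of Hsd17b13. Circles are fitted changes with their SE; the diamond is Hsd17b13 as a log2 ratio of summed counts, 4.55 with a 95% counting interval of 3.39 to 6.03. Hsd17b11 at 1.78 is the filled circle, and the other 9 genes lie between -0.46 and 0.27.

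Hsd17b2, the gene of the oxidative enzyme that inactivates oestradiol and testosterone, lies at chr8:117701904-117759027 on the plus strand. It had 13.4 (DE679), 15.1 (DE685) and 13.3 (DE688) CPM in the knockout and 12.6 (DE680), 12.5 (DE684) and 17.4 (DE689) in the control. DE689 stood above all other libraries, and the groups overlapped. The log2 change was -0.03 (SE 0.15, edgeR adjusted p 0.942).

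Hsd17b4 encodes the multifunctional enzyme of peroxisomal fatty acid breakdown and bile acid synthesis. Its CPM values were 112 (DE679), 117 (DE685) and 116 (DE688) in the knockout and 121 (DE680), 116 (DE684) and 127 (DE689) in the control. Values were close together in all 6 libraries, and the log2 change was -0.08 (SE 0.06, edgeR adjusted p 0.483).

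Hsd17b10 encodes a mitochondrial enzyme of isoleucine breakdown that is also a subunit of mitochondrial RNase P, and lies at chrX:152001845-152004442 on the plus strand. It had 57.6 (DE679), 62.4 (DE685) and 57.6 (DE688) CPM in the knockout and 61.5 (DE680), 59.7 (DE684) and 59.9 (DE689) in the control. The knockout range enclosed the control range, and the log2 change was -0.03 (SE 0.06, edgeR adjusted p 0.836).

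Hsd17b12 encodes the ketoacyl-CoA reductase of the fatty acid elongation cycle and lies at chr2:94032689-94157964 on the minus strand. It had 290 (DE679), 395 (DE685) and 299 (DE688) CPM in the knockout and 362 (DE680), 383 (DE684) and 356 (DE689) in the control. Both knockouts without Y-linked counts were below every control, while DE685 was above every control. The log2 change was -0.16 (SE 0.12, edgeR adjusted p 0.483), and -0.18 with the presence of Y-linked counts as a covariate (SE 0.08, edgeR adjusted p 0.238). Among libraries without Y-linked counts, Hsd17b12 stood at 290 and 299 CPM in the knockout against 362 and 356 in the control. The libraries with Y-linked counts stood at 395 and 383.

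Per kilobase of annotated exon, the members took the same order in all 6 libraries. Hsd17b12 was the most abundant, with 136 ± 24.1 CPM per kb in the knockout and 153 ± 5.81 in the control. Hsd17b10 followed with 45.6 ± 2.12 and 46.5 ± 0.754, and Hsd17b4 with 33.8 ± 0.734 and 35.7 ± 1.56. Hsd17b2 had 7.25 ± 0.506 and 7.38 ± 1.45. Hsd17b11 had 2.14 ± 0.256 in the knockout and 0.621 ± 0.16 in the control, and Hsd17b13 had 0.940 ± 0.24 and 0.0402 ± 0.0213 (SD, n = 3 each). No library of a gene overlapped a library of its neighbour in this order within a group. The pair that was higher in the knockout was thus the least abundant of the 6 in both groups.

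**Figure D4:**
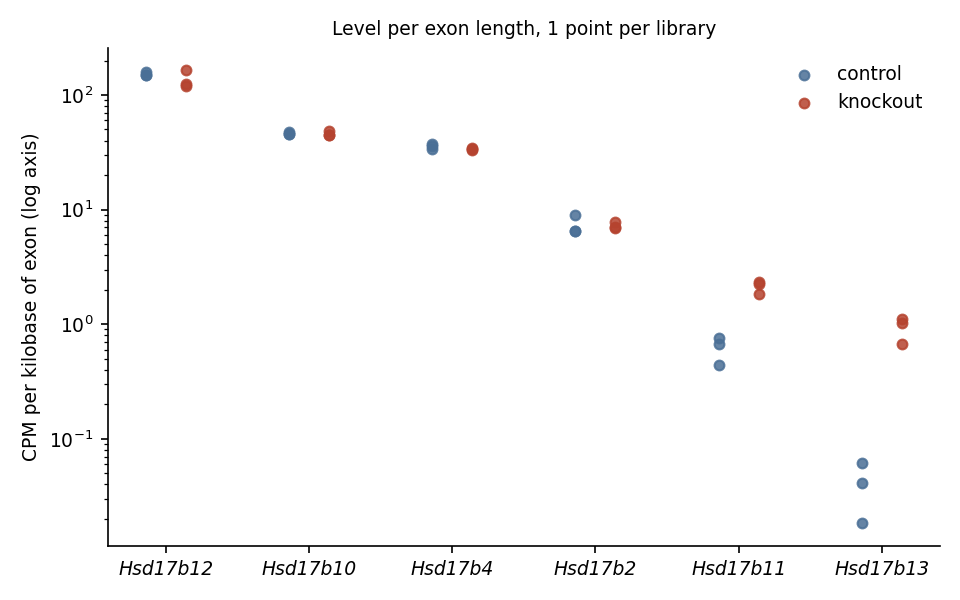
CPM per kilobase of annotated exon (log axis) for each member, 1 point per library, ordered by control level. Values fall from 120 to 164 for Hsd17b12 to 0.668 to 1.12 in the knockout and 0.0184 to 0.0610 in the control for Hsd17b13.

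Related genes were taken from lists by function, and each list is described by its count past the threshold and its median log2 change. Over all 15422 genes the median log2 change was 0.00, and 2931 genes (19.0%) had an unadjusted p under 0.05. At an adjusted p under 0.05, edgeR called 247 of all genes (1.60%), limma-voom 244 and DESeq2 872. With adjacent tags as pairs, edgeR called 704 (4.56%). Few or no calls in a short list are therefore not read as a result about that list. A list named for the SDR16C branch of short-chain dehydrogenases, to which the pair belongs, held the retinol and retinaldehyde enzymes Sdr16c5, Sdr16c6 and Rdh10. In edgeR 0 of 3 passed, 1 had an unadjusted p under 0.05, and DESeq2 called 1 while limma-voom called 0. That gene was Rdh10, which oxidises retinol, at 24.3, 24.5 and 21 CPM in the knockout and 29.5, 28.1 and 34.4 in the control. The knockouts were all below the controls, in the direction opposite to the pair, with a log2 change of -0.40 (adjusted p 0.112 in edgeR, SE 0.11). Sdr16c6 had 543 ± 73.8 against 618 ± 37.2 CPM and Sdr16c5 had 93.6 ± 16.9 against 80.3 ± 13.2 CPM (SD, n = 3 each), both with overlapping groups.

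Of the other genes named Hsd17b and close to them, 4 were tested and 0 passed in edgeR, DESeq2 or limma-voom, with 0 at an unadjusted p under 0.05 in edgeR. Hsd17b7, which also acts in cholesterol synthesis, followed the Y-linked counts: DE684 and DE685 had the highest values, 224 and 178 CPM, and within each class the knockout was below the control. Libraries without Y-linked counts stood at 89.0 and 99.3 CPM in the knockout and 140 and 120 in the control. The log2 change of Hsd17b7 was -0.41 (SE 0.31, edgeR adjusted p 0.507), and with the Y-linked covariate it was -0.42 (SE 0.08, edgeR adjusted p 0.0418). With adjacent tags as pairs Hsd17b7 was lower in the knockout of each pair, by -0.42 (SE 0.08, edgeR adjusted p 0.0347). DE684 and DE685, the libraries with Y-linked counts, form a pair in that block, which was chosen after the data were seen. The block and the covariate thus remove the same difference, and their results are not independent. Without the block or covariate its change ran from -0.095 without DE684 to -0.78 without DE685. H2-Ke6, which encodes HSD17B8, had 35.7 ± 2.00 against 34.8 ± 1.65 CPM (SD, n = 3 each), and its counts are uncertain because 86.4% of its exon bases overlap Gm20427 on the same strand. Hsd17b14 had 1.24 ± 0.395 against 1.43 ± 0.423 CPM. Hsd17b1 was not tested, with 1 to 3 counts in every library.

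Among 12 tested genes for other hydroxysteroid dehydrogenases, 0 passed in edgeR and limma-voom, 1 passed in DESeq2, and 1 had an unadjusted p under 0.05 in edgeR. This was Hsd3b7, a bile acid synthesis enzyme, picked out here because of its values, whose log2 change was 0.59 (SE 0.16, edgeR adjusted p 0.111), and which edgeR also called with adjacent tags as pairs. Its exons overlap those of 9430064I24Rik and Gm49388 over 62.4% and 62% of their bases, so its counts are uncertain. Hsd3b6, a steroid isomerase of skin and adrenal, varied within both groups: it had 4.66, 2.48 and 56.8 CPM in the knockout and 55.7, 2.50 and 63.2 in the control. Akr1c18, which inactivates progesterone, had 288 ± 91.2 against 168 ± 174 CPM (SD, n = 3 each). Hsdl2, a peroxisomal relative, had 70.3 ± 6.49 against 71.0 ± 3.1 CPM. The list had a median log2 change of 0.01.

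Genes for the supply and conversion of steroid hormones, 11 tested, had 0 past the threshold in edgeR, DESeq2 and limma-voom, 1 at an unadjusted p under 0.05 in edgeR, and a median log2 change of -0.02. Srd5a1, the reductase that makes dihydrotestosterone, had 91.4 ± 13.4 against 99.4 ± 14.6 CPM, and Cyp17a1 had 10.0 ± 1.04 against 12.3 ± 2.08 CPM (SD, n = 3 each). Por, which passes electrons to microsomal cytochromes P450, had 117 ± 13.3 against 117 ± 4.78 CPM (SD, n = 3 each). Fdxr, the reductase that feeds electrons to mitochondrial steroid enzymes, had a log2 change of 0.28 (adjusted p 0.222 in edgeR, SE 0.11).

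Of 9 tested steroid receptors and cofactors, 0 passed in edgeR and limma-voom, 1 passed in DESeq2, and 2 had an unadjusted p under 0.05 in edgeR. Nr3c2, the mineralocorticoid receptor, had 7.63, 9.94 and 6.65 CPM in the knockout and 3.50, 3.73 and 5.12 in the control, with a log2 change of 0.96 (adjusted p 0.0858 in edgeR, SE 0.22). DESeq2 gave Nr3c2 0.97 with an adjusted p of 0.00488. Fkbp5, a chaperone of steroid receptors and a known target of the glucocorticoid receptor, had 162, 245 and 143 CPM in the knockout and 54.3, 73.7 and 120 in the control. Its groups did not overlap, and the log2 change was 1.14 (SE 0.30, edgeR adjusted p 0.112). With adjacent tags as pairs, the Fkbp5 change was 1.19 (SE 0.26, edgeR adjusted p 0.0457). Nr3c1, the glucocorticoid receptor, had 206 ± 8.94 against 225 ± 28.9 CPM, and Fkbp4, a related chaperone, had 146 ± 6.91 against 136 ± 7.72 CPM (SD, n = 3 each).

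The pair encodes lipid droplet proteins, and of 30 other lipid droplet genes tested, 1 was lower and 0 were higher past the threshold in edgeR and limma-voom, 6 had an unadjusted p under 0.05 in edgeR, and the median log2 change was -0.01. DESeq2, and edgeR with adjacent tags as pairs, called Dgat2 and Plin3, a droplet coat protein gene, which had 93.5 ± 6.12 against 74.3 ± 6.27 CPM (SD, n = 3 each) and stood higher in all 3 knockouts. Dgat2, which makes triacylglycerol, had 227, 229 and 228 CPM in the knockout and 267, 285 and 282 in the control. It fell by 0.29 on the log2 scale (SE 0.05, edgeR adjusted p 0.0469), but its adjusted p was 0.0735 to 0.195 when any 1 of the 6 libraries was left out. Plin2, a main coat protein of lipid droplets, had 348 ± 18.2 against 346 ± 55.8 CPM, and Mgll, a monoacylglycerol lipase, had 926 ± 388 against 887 ± 216 CPM (SD, n = 3 each). Pnpla3, a lipase known together with Hsd17b13 from fatty liver, had 12.2, 12.3 and 4.05 CPM in the knockout and 6.21, 4.96 and 4.76 in the control. DE688 was the lowest of all 6 libraries for Pnpla3, and the log2 change was 0.83 (SE 0.39, edgeR adjusted p 0.290). Mettl7b, which encodes a lipid droplet methyltransferase, had 5.36 ± 0.686 against 7.38 ± 1.14 CPM, with overlapping groups (SD, n = 3 each).

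Partners of the members in their own pathways did not pass in edgeR without a block, DESeq2 or limma-voom; with adjacent tags as pairs, edgeR called Elovl7 and Acox2. Of 11 genes that elongate fatty acids with Hsd17b12, 4 had an unadjusted p under 0.05 in edgeR (Elovl5, Elovl6, Elovl7 and Hacd1), 8 had a negative change, as did 7814 of all 15422 genes, and the median log2 change was -0.11. Against the 4 of 11 genes stands the 19.0% of all genes at that p. Elovl6, the elongase of palmitate, had 2050 ± 48.4 against 2300 ± 99.6 CPM and an adjusted p of 0.206 in edgeR for a log2 change of -0.17 (SE 0.06). Hacd1, a dehydratase of the same cycle, had 3.32 ± 0.276 against 4.8 ± 0.164 CPM and an adjusted p of 0.159 in edgeR for a log2 change of -0.53 (SE 0.17). For both genes the knockout libraries were all below the controls. Elovl7 had 143 ± 12.4 against 184 ± 30.1 CPM, and Elovl4, which makes the ultra-long chains of epidermal barrier lipids, had 873 ± 126 against 946 ± 78.8 CPM (SD, n = 3 each), both with overlapping groups. With adjacent tags as pairs, the Elovl7 change was -0.35 (SE 0.07, edgeR adjusted p 0.0384). Elovl5, an elongase of polyunsaturated chains, stood the other way, at 28.2 ± 4.29 against 22.3 ± 3.22 CPM, with overlapping groups (log2 change 0.34, SE 0.14, edgeR adjusted p 0.250).

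Over 22 peroxisomal genes that work with Hsd17b4, the median log2 change was 0.05. Acox2, a branched-chain acyl-CoA oxidase, had a log2 change of 0.70 (adjusted p 0.302 in edgeR, SE 0.33), and Acaa1b, a peroxisomal thiolase, had one of 0.66 (SE 0.28, edgeR adjusted p 0.256). With adjacent tags as pairs, the Acox2 change was 0.76 (SE 0.17, edgeR adjusted p 0.0477). Scp2, a sterol carrier and thiolase, had 303 ± 47.4 against 321 ± 35.7 CPM, and Abcd3, a peroxisomal transporter, had 213 ± 10.1 against 221 ± 6.36 CPM (SD, n = 3 each). Of 17 mitochondrial genes that work with Hsd17b10, 3 had an unadjusted p under 0.05 in edgeR (Echs1, Hadha and Ivd) and the median log2 change was 0.01. Trmt10c, a further subunit of mitochondrial RNase P, had 18 ± 1.77 against 20.7 ± 0.599 CPM (SD, n = 3 each), and its log2 change was -0.21 (SE 0.10, edgeR adjusted p 0.286). Hadha, a subunit of the trifunctional protein of fatty acid oxidation, had 201 ± 3.66 against 178 ± 6.76 CPM, and its log2 change was 0.18 (SE 0.05, edgeR adjusted p 0.15). Hadh, the short-chain enzyme, had 232 ± 26.6 against 242 ± 38.4 CPM, and Ivd, of leucine breakdown, had 43.6 ± 8.91 against 32.7 ± 4.4 CPM (SD, n = 3 each), both with overlapping groups.

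**Figure D5:**
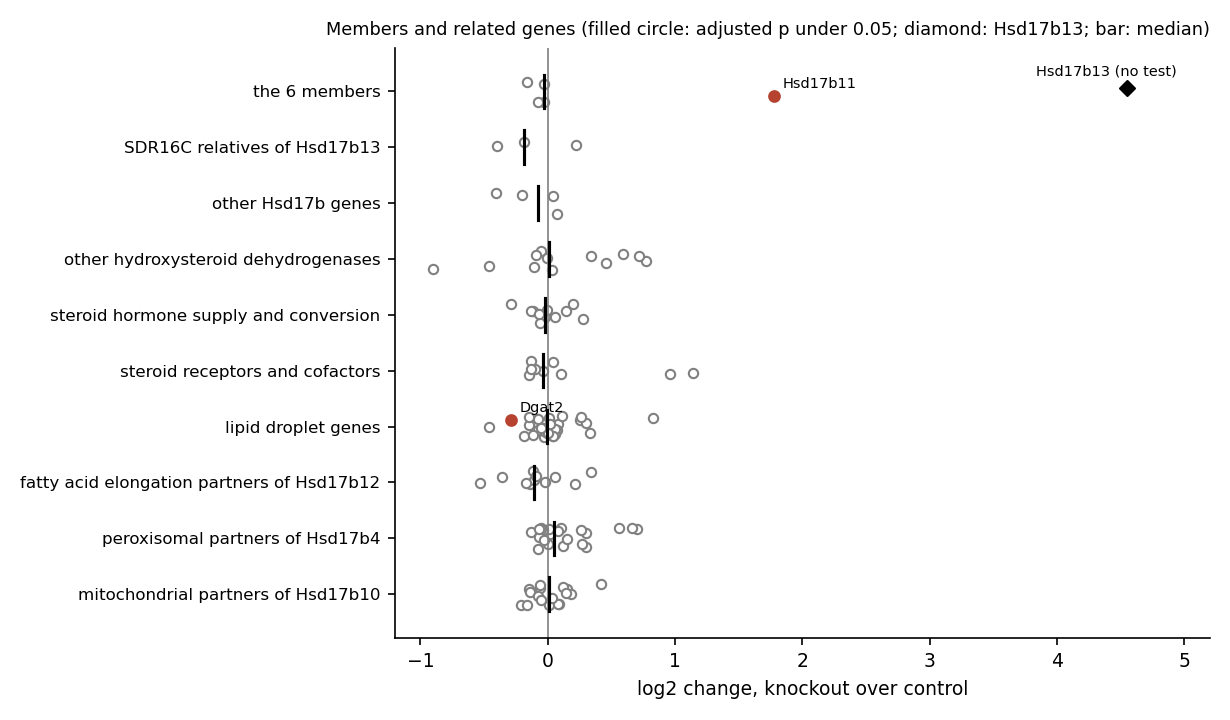
Log2 change, knockout over control, for the 6 members and for the tested genes of each list; bars are list medians, filled circles passed an adjusted p of 0.05, and the diamond is Hsd17b13 as a log2 ratio of summed counts. Hsd17b11 at 1.78 and Dgat2 at -0.29 are the filled circles, and list medians lie between -0.19 and 0.05.

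In bulk libraries, more cells of a type and more RNA per cell cannot be told apart, so markers of keratinocyte layers and of other cell types are given beside the pair. Of 9 keratinocyte markers, 0 were called in edgeR. The basal-layer genes Krt5, Krt15 and Trp63 stood higher in every knockout than in any control, at 14800 ± 905 against 12800 ± 1390, 1880 ± 171 against 1440 ± 142, and 649 ± 8.54 against 552 ± 24.8 CPM (SD, n = 3 each). Lor, a gene of the cornified layer, stood lower in every knockout, at 744 ± 28.7 against 910 ± 131 CPM. Over all tested genes, every knockout stood above every control for 12.8% and below for 12.8%. Krt14, also a basal-layer gene, overlapped between the groups, with 10400 ± 977 against 10200 ± 1190 CPM (SD, n = 3 each; edgeR adjusted p 0.911). Krt1, Krt10, Dsg3 and Ivl overlapped as well. The part of keratinocyte layers in the difference of the pair was not tested. The sebocyte list, whose cells are rich in lipid droplets, had 10 of 10 genes tested, 0 called, and summed levels of 8960 to 9940 CPM in the knockout and 8960 to 9690 in the control. Scd1 led that sum, at 5130 ± 299 against 5240 ± 537 CPM (SD, n = 3 each), so the sum says little about the scarcer genes. Awat2 ranged from 5.37 to 31 CPM in the knockout and from 5.13 to 30.6 in the control. Soat1 stood lower in every knockout, at 230 to 238 against 255 to 261 CPM, and the other sebocyte genes overlapped. Hepatocyte markers were at the floor: 2 of 6 had a row, Alb and Apoa1, and their sum was 0.127 to 0.389 CPM in the knockout and 0.132 to 0.198 in the control. Adipocyte markers summed to 1.53 to 3.23 CPM in the knockout and 1.42 to 5.24 in the control, with Adipoq, Car3 and Cfd among those not listed. The fibroblast list summed to 129 to 142 CPM in the knockout and 37.7 to 79.5 in the control, with 1 gene called of 5 tested, Dcn, a matrix proteoglycan. Without Dcn, the other 6 fibroblast genes summed to 15.1 to 19.0 CPM in the knockout and 12.6 to 38.9 in the control. Endothelial markers summed to 2.08 to 3.62 CPM in the knockout and 3.65 to 7.11 in the control, without overlap, and 0 of 4 tested were called. Sums of melanocyte and immune markers overlapped between the groups, at 71.6 to 111 against 49.0 to 77.3 CPM and at 43.3 to 105 against 21.5 to 86.2 CPM, with 0 called. The median log2 change was 0.53 for the melanocyte list and 0.50 for the immune list. Of the melanocyte genes, Pmel and Mlana stood higher in every knockout than in any control, while Dct, Tyr, Tyrp1, Sox10 and Kit overlapped. Skeletal muscle markers summed to 2.19 to 2.88 against 1.95 to 3.11 CPM. The part of Dcn-expressing cells, endothelial cells, melanocytes or immune cells in the difference of the pair was not tested.

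The genes whose log2 CPM over the 6 libraries was most like that of Hsd17b13, by Pearson's r among 13664 genes with a mean of at least 1 CPM, were Scnn1g (0.998), Igfbp4 (0.997), Gli2 (0.995), Rai14 (0.995) and Tspan33 (0.994). With 3 libraries high and 3 low, this measure mostly follows the split between the groups, whatever the size of the change. It is a description without a test. Scnn1g, an epithelial sodium channel subunit, had 9.35 ± 1.33 against 2.76 ± 0.414 CPM, and Gli2, a transcription factor of the Hedgehog pathway, had 48.7 ± 5.75 against 14.1 ± 2.84 CPM (SD, n = 3 each). Most like Hsd17b11 were Cldn1 (0.995), Sox12, Cdkn1c, Kank3 and Il17re (0.994 each), of which only Cldn1, a tight junction protein gene, was past the threshold in edgeR, with an adjusted p of 0.0636 to 0.171 when any 1 library was left out. DESeq2 also called Il17re (adjusted p 0.0402). The r between Hsd17b13 and Hsd17b11 was 0.935, which put Hsd17b11 at rank 254 for Hsd17b13 and Hsd17b13 at rank 236 for Hsd17b11.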

How the data were processed

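Polyadenylated RNA of 6 libraries was measured, 3 knockout and 3 control. Per the submitters' processing notes, bcl2fastq 2.20, cutadapt 1.18, STAR 2.7.0f and Partek were used with build mm10; their settings, the annotation and strand use are not given in the sources used here. The authors deposited estimated counts per gene, of which 53.0% to 57.7% were whole in a library, and a normalized signal per gene. Each column names a group but no sample title, so columns were assigned to groups only.

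Estimated counts were rounded. Genes were filtered with filterByExpr, scaled with TMM and tested with edgeR 4.0.16 quasi-likelihood functions, genotype as the only term, with Benjamini-Hochberg adjustment over 15422 genes and a threshold of 0.05. The planned design assumed raw counts and RefSeq proteins; the same test was kept, and coding sequences stood in for proteins. The script was tested on simulated data with known changes. Each SE was derived as the size of the log2 change over the root of F. Alternatives were other scalings and filters, DESeq2 1.42.0, limma 3.58.1 (voom, and log2 of the authors' normalized signal plus 1), a Y-linked covariate and each library left out. A fit with adjacent library tags as a block was added after the data were seen: in all 3 such pairs, knockout and control deviated together from their group means (r 0.19, 0.34 and 0.38 over 15422 genes), and in the other 6 combinations r was -0.32 to -0.05. The pairing comes from the tag numbers, not from a label. Each pair also shares its Y-linked class, since DE684 and DE685 are the libraries with Y-linked counts, so the block contains the Y-linked covariate. Deviations cancel within a group, so positive r in the pairs pulls r in the other combinations down. What the paired libraries share cannot be read from these r values. Exon lengths, overlaps and transcripts are from GENCODE M21, whose coordinates were identical to those deposited for 96.4% of genes. Coding sequences were aligned with Biopython 1.88.

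Members and lists were chosen with earlier results of these data known. Named were the 6 members, Gpr161, the 10 neighbours and the 5 genes most like each of the pair. From each list, genes past the threshold, the 2 most abundant and the 2 most changed (mean of at least 1 CPM) were named. Outside this rule, Hsd3b7, Plin3, Elovl5 and Echs1 were named because of their p or a call in another fit. Cell type markers, and Hsd17b1 as an untested gene, were named as well. Exact permutation of 3 against 3 libraries cannot go below 0.1, so single genes rest on the fit. Count intervals and floors cover counting error only.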

Additional observations from a re-analysis of the deposited data

How the results depend on the processing

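The Hsd17b13 ratio of summed counts was 23.4 to 23.8 under the other scalings. With 1 library left out, this ratio was 18.1 (without DE689) to 31.8 (without DE684). Tests and covariates do not enter this ratio, and the filter enters it only through the library sizes and factors used for scaling. In tests without a block, the Hsd17b11 change kept its direction and its side of the threshold under every other scaling, filter, tool and covariate, from 1.40 (limma on the authors' values) to 1.80, with adjusted p from 1.8e-08 (DESeq2) to 0.0170. Leaving out 1 library gave Hsd17b11 changes of 1.58 to 1.94 and edgeR adjusted p of 0.0327 to 0.0646. Those fits hold fewer libraries, and why the adjusted p rose was not tested. Without 1 library the changes of the other members ran from -0.11 to 0.15 for Hsd17b2, reversed without DE679, DE688 or DE689, from -0.11 to -0.044 for Hsd17b4, from -0.068 to -0.0045 for Hsd17b10 and from -0.32 (without DE685, adjusted p 0.0970) to -0.077 for Hsd17b12, none past the threshold.

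The count of genes past the threshold was 409 with the Y-linked covariate (73.1% higher, against 77.7%), 872 with DESeq2 (64.8% higher) and 69 (without DE688) to 121 (without DE684) with 1 library left out. DESeq2 called 1 gene of the SDR16C list, 1 other hydroxysteroid dehydrogenase, 1 receptor or cofactor and 2 lipid droplet genes (Dgat2 and Plin3). The Y-linked covariate added 1 Hsd17b gene, Hsd17b7. Lipid droplet calls were 0 with upper-quartile factors, 0 with no filter, and 0 with any 1 library left out. Neighbours called were 0 to 1 with 1 library left out, 0 without DE680, DE685 or DE688. The cause of these changes was not tested.

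With upper-quartile factors the changes of Hsdl2 and Por reversed, to 0.0039 and 0.011. With 1 library left out, changes near 0 that did not pass the threshold also changed sign, ranging from -0.008 to 0.078 for H2-Ke6, -0.089 to 0.029 for Hsdl2, -0.1 to 0.058 for Por, -0.24 to 0.0041 for Srd5a1, -0.34 to 0.28 for Mgll, -0.12 to 0.09 for Plin2, -0.22 to 0.013 for Scp2, -0.19 to 0.028 for Hadh, -0.082 to 0.045 for Ptpn13, -0.12 to 0.1 for Aff1 and -0.022 to 0.1 for Nudt9. No pairing by the replicate numbers of the titles was possible, since the columns carry none; a replicate block of adjacent library tags, chosen after seeing the data, gave 704 genes past the threshold (66.1% higher), 247 of them shared with the unblocked 247. That block called 1 gene each among other Hsd17b genes, other hydroxysteroid dehydrogenases, receptors and cofactors, elongation and peroxisomal partners, and 2 lipid droplet genes, and changed no call of the members. At these depths, 3 counts are 0.117 to 0.173 CPM, so levels of Hsd17b13 in the control are not resolved further.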
